A study of Setaria viridis with 9 samples.

Results

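The heat shock proteins and chaperones described here are 80 of the 17987 genes in a leaf RNA-seq table of Setaria viridis, a C4 grass. They were chosen by words in the deposited gene descriptions (heat shock, heat stress transcription factor, chaperonin, ClpB, hsp70, hsp90 and BAG family), with no further exclusion. The study compared the wild-type cultivar ME034V-1 with gene-edited plants of that cultivar that carry null alleles of NdhO, which encodes part of the NDH complex of the thylakoid, or of PGR5, which acts in cyclic electron flow at photosystem I. Each of the 3 labels, WT, ndhO and pgr5, had 3 libraries that the labels call biological replicates. All plants were grown at 28 °C by day and 22 °C by night with 16 h of light and 8 h of dark at 380 µmol m-2 s-1 and 60% humidity. The youngest fully expanded leaves were used 3 to 4 weeks after sowing, and the leaf discs came from plants kept under constant daylight conditions. No heat treatment was named for any label. The labels do not say how many independent edited lines the ndhO and pgr5 libraries came from.

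Chaperones bind unfolded or newly made proteins and keep them from aggregating. Heat stress transcription factors switch on many chaperone genes when unfolded proteins accumulate. The ATP-driven HSP70, HSP90 and ClpB machines and the barrel-shaped chaperonins refold or release clients with the help of co-chaperones, while small heat shock proteins hold clients without ATP. Leaf cells need separate sets of them in the cytosol, the chloroplast, the mitochondrion and the endoplasmic reticulum, and in the chloroplast they also serve the assembly of Rubisco.

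The libraries held from 11606570 to 18837265 counts. Levels are given as CPM, the usual depth-scaled count (here with TMM scaling), and since transcript lengths were not used here they are compared between libraries and not between genes. Leaf tissue was checked with 31 genes of photosynthesis in a C4 leaf, 12 of them light-harvesting antenna genes. Their summed level was 113302 CPM in the lowest library and 156607 CPM in the highest. Reads of neither edited gene tracked the labels. NdhO (LOC117858157) was at 44.3, 617 and 230.0 CPM in WT 1, 2 and 3, 245, 443 and 446 CPM in ndhO 1, 2 and 3, and 421, 20.5 and 48.4 CPM in pgr5 1, 2 and 3. Its 3 lowest libraries, pgr5 2, WT 1 and pgr5 3, were labelled WT or pgr5. PGR5 (LOC117861247) was at 376, 46.5 and 42.8 CPM in WT 1, 2 and 3, 38.1, 318 and 338 CPM in ndhO 1, 2 and 3, and 287, 249.8 and 389 CPM in pgr5 1, 2 and 3, so that its 3 lowest libraries were labelled WT or ndhO. Low levels of both genes thus fell in libraries labelled WT as well, and the reason was not tested. These levels do not bear out the labels. Every direction below is one between libraries labelled WT, ndhO or pgr5, and not between checked genotypes.

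All 80 genes passed the filter on low counts. Their mean level over the 9 libraries was under 1 CPM for 11 genes, 1 to 10 CPM for 28, 10 to 100 CPM for 33 and at least 100 CPM for 8. Their median standard deviation over libraries was 0.46 on the log2 scale, against 0.37 for all genes. By that measure 32 of the 80 lay among the most variable 25% of all genes and 12 among the least variable 25%, and 29 stayed within 2-fold over the 9 libraries (CPM plus 1). In 14 of them at least 1 library held no read.

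No chaperone gene passed the test between any labels. By edgeR's quasi-likelihood test with Benjamini-Hochberg adjustment over all 17970 genes tested, 0 of the 80 were called for ndhO against WT, for pgr5 against WT, for pgr5 against ndhO or for any difference among the labels. The share called among all genes was 0% in each of these tests, and the lowest adjusted p was 1.00. DESeq2 and limma-voom also called none of the 80, whereas DESeq2 called 16, 6 and 12 of all genes in the 3 contrasts and 7 for any difference, and limma-voom called 0. At an unadjusted p under 0.05, edgeR gave 1 chaperone gene for ndhO against WT (background 2.74% of all genes), 3 for pgr5 against WT (background 2.06%), 4 for pgr5 against ndhO (background 2.67%) and 1 for any difference (background 1.91%). The median log2 fold change of the 80 was 0.01 for ndhO against WT, 0.10 for pgr5 against WT and 0.13 for pgr5 against ndhO, beside -0.00, 0.00 and 0.01 for the medians of all genes. The median for pgr5 against ndhO was -0.05 without the library pgr5 3, and that for pgr5 against WT was 0.01 without it.

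The libraries of 2 labels did not overlap for 8 of the 80 genes between ndhO and WT, 5 higher and 3 lower in ndhO (10% of the 80, background 8.63% of all genes). They did not overlap for 4 genes between pgr5 and WT, 2 in each direction (5% of the 80, background 6.32%), and for 8 genes between pgr5 and ndhO, 4 in each direction (10% of the 80, background 8.25%). These shares lie close to those of all genes. The 8 genes between pgr5 and ndhO were 4 of 13 small heat shock protein, 2 of 10 BAG, 1 of 6 HSP90 and 1 of 4 ClpB genes. This split by family was not tested. With 3 libraries against 3, an exact permutation test of a single gene cannot go below p = 0.1. In bulk leaf RNA, fewer cells of a type and less RNA per cell cannot be told apart.

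**Figure D1:**
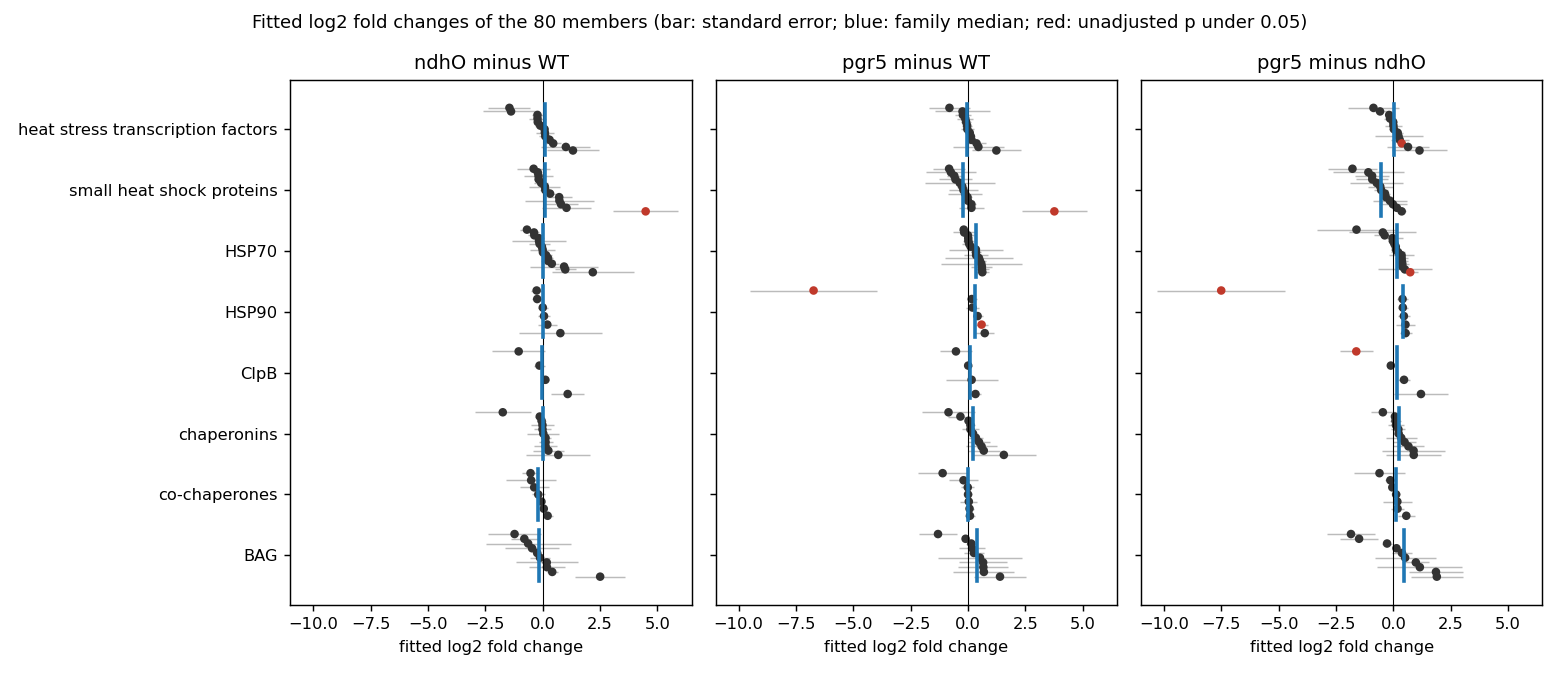
Fitted log2 fold changes (x axis) of the 80 genes in the 3 contrasts, 1 point per gene with its standard error as a bar, grouped by family, with the family median as a blue line and genes at an unadjusted p under 0.05 in red. Most points lie near 0, and 1, 3 and 4 genes are red in the 3 panels. The leftmost red points are heat shock protein 82, which had 0 counts in every pgr5 library, so that its fitted value depends on the prior count.

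A single library stood apart for many of the chaperone genes. The library pgr5 3 held the highest level of 29 of the 80 genes (36.3%), beside 16.9% of all genes. It was the highest library for 5 of 6 HSP90 genes, 8 of 16 HSP70 genes, 7 of 11 chaperonin genes and 5 of 10 BAG genes. It was the highest for none of the 13 small heat shock protein genes. Over genes with a mean of at least 1 CPM, the family median relative to each gene's own mean was 1.14 in pgr5 3 for BAG, 0.65 for HSP90, 0.57 for chaperonins, 0.55 for HSP70, 0.28 for co-chaperones, -0.02 for ClpB, -0.04 for heat stress transcription factors and -0.39 for small heat shock proteins, all as log2 differences. For small heat shock proteins that was the lowest of the 9 libraries. In the same library, 167 of 183 cytosolic ribosomal protein genes were at their highest. The 181 of them with a mean of at least 1 CPM had a median of 0.94 there and of -0.54 to 0.30 in the other libraries. The part of this in the chaperone values was not tested.

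The 11 genes described as chloroplastic or stromal and the mitochondrial ones stood out in the same library. Their grouping was chosen after the values were seen. The chloroplastic genes had a median log2 difference of 0.74 in pgr5 3, where 8 of the 11 were highest, and of -0.48 in WT 3, where 7 were lowest. The 12 mitochondrial genes with a mean of at least 1 CPM had a median of 0.57 in pgr5 3, where 8 of all 14 were highest. The 45 genes with a mean of at least 1 CPM and no compartment in their description had a median of 0.14 there.

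**Figure D2:**
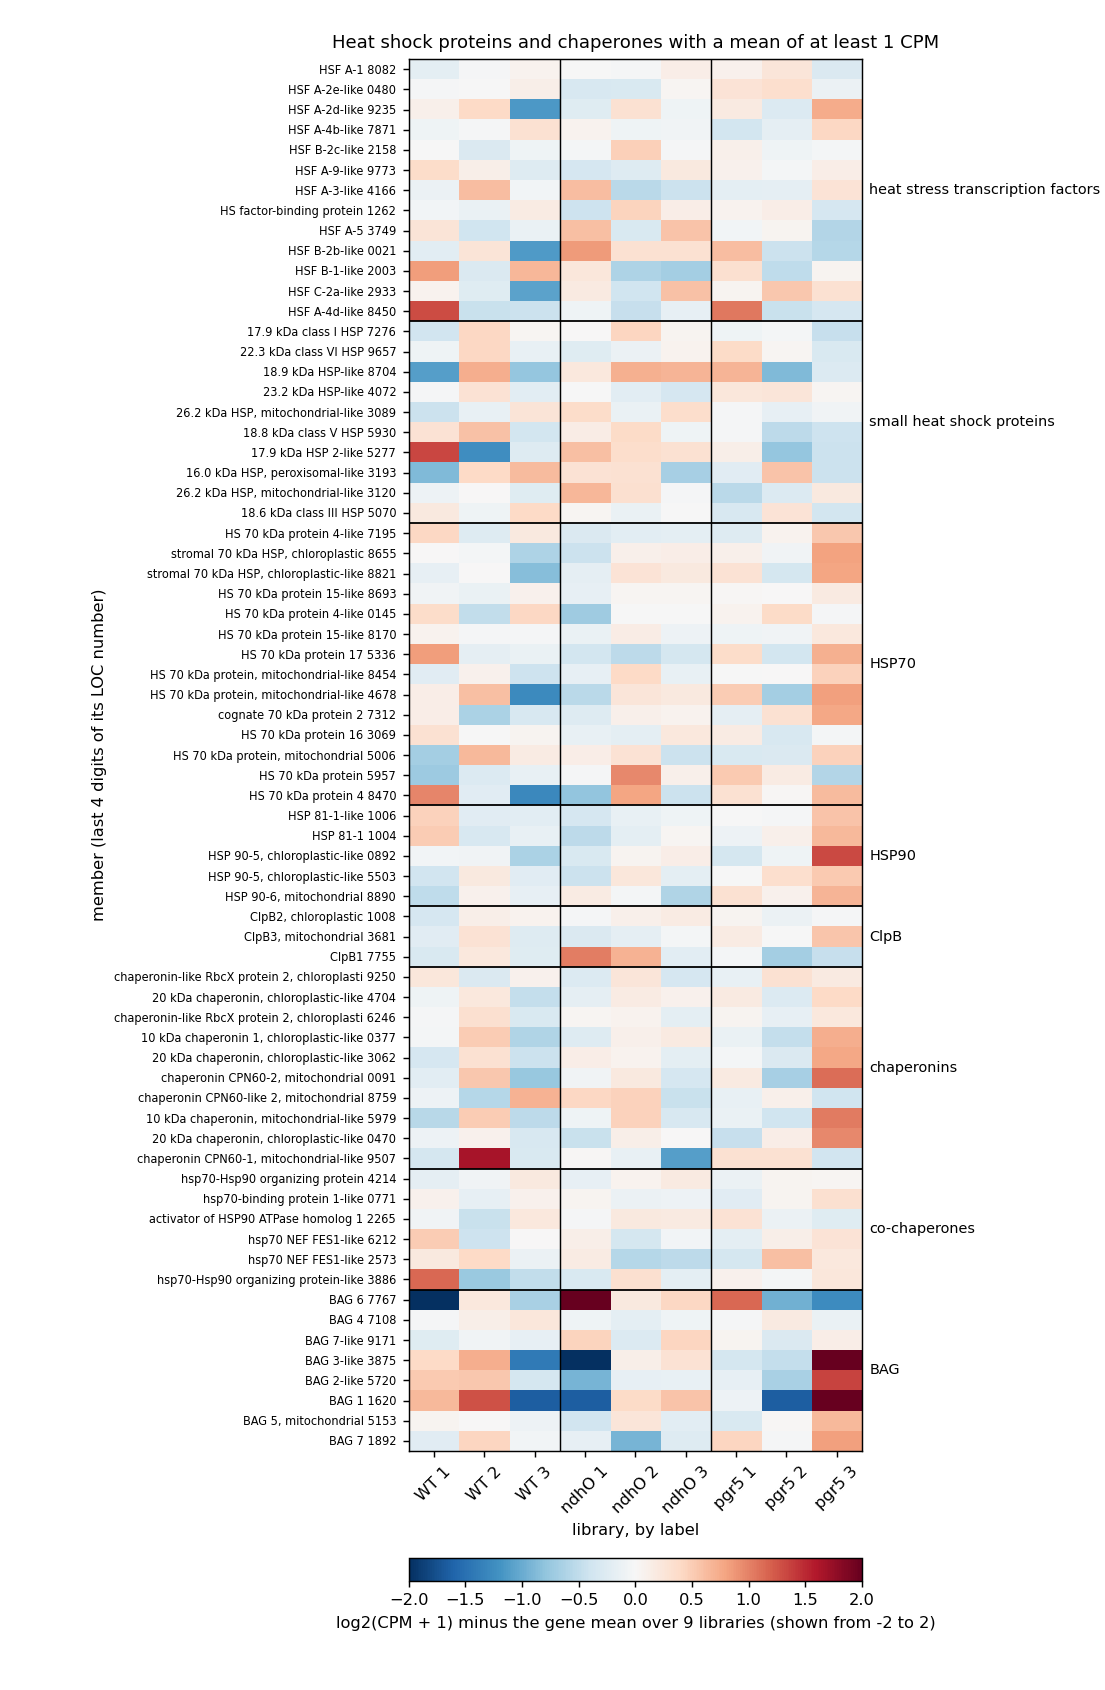
Log2(CPM + 1) of each of the 69 genes with a mean of at least 1 CPM minus its mean over the 9 libraries (colour, shown from -2 to 2), with genes in rows by family, ending in the last 4 digits of the gene number, and libraries in columns by label. The pgr5 3 column is the highest for most HSP90 and chaperonin genes, and the BAG rows hold the strongest colours, in WT 1, ndhO 1 and pgr5 3.

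Heat stress transcription factors varied little in their summed level, but not gene by gene. Their median standard deviation over libraries was 0.45 on the log2 scale, against 0.37 for all genes. The 13 genes include the heat shock factor-binding protein, which binds these factors and limits their activity, and their summed level ran from 185 CPM in ndhO 1 to 207 CPM in pgr5 1. The median log2 fold change of the family was 0.08 for ndhO against WT, -0.03 for pgr5 against WT and 0.02 for pgr5 against ndhO. HSF A-1 (LOC117838082), whose class A1 relatives in tomato and Arabidopsis act as master activators of the heat response, was at 42.7, 47.9 and 51.6 CPM in WT 1, 2 and 3, 48.7, 47.9 and 53.8 CPM in ndhO 1, 2 and 3, and 51.9, 58.0 and 39.8 CPM in pgr5 1, 2 and 3. The labels overlapped, and the fold changes were 0.08 (SE 0.16), 0.07 (SE 0.16) and -0.01 (SE 0.16) on the log2 scale for ndhO and for pgr5 against WT and for pgr5 against ndhO.

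HSF A-2e-like (LOC117840480), of the class that amplifies the response in Arabidopsis, was at 45.3, 45.8 and 50.2 CPM in WT 1, 2 and 3, 36.8, 37.4 and 47.7 CPM in ndhO 1, 2 and 3, and 55.9, 58.5 and 42.7 CPM in pgr5 1, 2 and 3. Its level was highest in pgr5 2 and pgr5 1, while pgr5 3 lay below ndhO 3. The log2 fold change for pgr5 against ndhO was 0.37 (SE 0.16) with an unadjusted p of 0.0498 by edgeR. HSF A-2d-like (LOC117839235) was at 21.9, 27.4 and 8.67 CPM in WT 1, 2 and 3, 17.1, 25.5 and 19.3 CPM in ndhO 1, 2 and 3, and 23.4, 16.7 and 34.9 CPM in pgr5 1, 2 and 3, a spread of 4.03-fold between pgr5 3 and WT 3, with every label spanning part of the same range. HSF B-2b-like (LOC117860021), of the class B factors that lack the activator motif of class A, was at 0.892, 1.62 and 0 CPM in WT 1, 2 and 3, 2.95, 1.69 and 1.69 CPM in ndhO 1, 2 and 3, and 2.35, 0.626 and 0.467 CPM in pgr5 1, 2 and 3. The 3 ndhO libraries all lay above the 3 WT libraries for this gene, but the log2 fold change of 1.32 had an SE of 1.12.

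Small heat shock proteins, which hold unfolded clients, were the only family whose median lay below 0 in both pgr5 contrasts. Of the 13 genes, 3 were above 0 and 10 below for pgr5 against WT (median log2 fold change -0.20), and 2 above and 11 below for pgr5 against ndhO (median -0.53), with none past the adjusted test. The second median was -0.39 to -0.63 when each library was left out in turn, whereas the first was -0.01 without pgr5 3, -0.03 without WT 2, -0.31 without pgr5 1 and -0.33 without pgr5 2. For ndhO against WT, 8 were above 0 and 5 below (median 0.11). The summed level of the family was 183, 295 and 198 in WT 1, 2 and 3, 225, 268 and 246 in ndhO 1, 2 and 3, and 261, 201 and 175 in pgr5 1, 2 and 3, all in CPM. WT 2 was the highest and pgr5 3 the lowest, and the labels overlapped.

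The 16.9 kDa class I gene LOC117857320, a cytosolic type of small heat shock protein, had the lowest unadjusted p of the 80 genes for both edited labels against WT. It had 0, 3 and 0 counts in WT 1, 2 and 3, 19, 60 and 8 counts in ndhO 1, 2 and 3, and 36, 5 and 16 counts in pgr5 1, 2 and 3. In CPM these were 0, 0.232 and 0, then 1.303, 3.50 and 0.589, then 1.92, 0.391 and 0.935 in the same order. Every ndhO and pgr5 library lay above every WT library. Pooled by label, the level in ndhO was 28.3 times that in WT with an exact 95% counting interval of 9.37 to 140.0, and the level in pgr5 was 17.3 times that in WT with an interval of 5.62 to 86.2. These intervals cover counting error only. The fitted log2 fold change was 4.49 (SE 1.43) for ndhO against WT, with an unadjusted p of 0.0103 by edgeR, and 3.76 (SE 1.41) for pgr5 against WT, with an unadjusted p of 0.0230. Both adjusted p-values from edgeR were 1.00, and the gene is at a level where WT held 3 reads in all. Leaving out each library in turn gave 3.55 to 4.91 and 3.05 to 4.16 on the log2 scale, apart from the fit without WT 2, in which WT held no read.

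No other small heat shock protein gene had an unadjusted p under 0.05 against WT. The 17.9 kDa class I gene LOC117837276 was at 53.6, 94.0 and 72.2 CPM in WT 1, 2 and 3, 70.3, 94.9 and 72.6 CPM in ndhO 1, 2 and 3, and 66.1, 68.1 and 50.4 CPM in pgr5 1, 2 and 3, with its highest levels in ndhO 2 and WT 2. Its 3 pgr5 libraries all lay below its 3 ndhO libraries, while WT overlapped both. The 18.9 kDa gene LOC117848704 was at 16.6, 61.4 and 21.1 CPM in WT 1, 2 and 3, 42.8, 60.9 and 59.2 CPM in ndhO 1, 2 and 3, and 59.6, 19.6 and 30.3 CPM in pgr5 1, 2 and 3, so that 5 libraries, drawn from all 3 labels, lay from 42.8 to 61.4 CPM and the other 4 from 16.6 to 30.3 CPM. The 22.3 kDa class VI gene LOC117849657 was at 61.0, 86.8 and 58.7 CPM in WT 1, 2 and 3, 55.0, 59.5 and 68.4 CPM in ndhO 1, 2 and 3, and 84.6, 66.4 and 52.5 CPM in pgr5 1, 2 and 3, and its labels overlapped. The 17.9 kDa gene 2-like LOC117855277 ran from 1.08 CPM in WT 2 to 11.4 CPM in WT 1, so that WT libraries held both ends of its range. The 18.8 kDa class V gene LOC117845930 averaged 8.26 ± 2.90, 7.88 ± 1.43 and 5.44 ± 1.22 CPM (SD, n = 3) in WT, ndhO and pgr5, with a log2 fold change of -0.60 (SE 0.32) for pgr5 against WT. The 17.4 kDa class I gene LOC117838931, at 0.823, 1.28 and 1.47 CPM in ndhO 1, 2 and 3, lay above all WT libraries (0.472, 0.773 and 0.491 CPM) and all pgr5 libraries (0.427, 0.548 and 0.0584 CPM), at 1 to 22 counts per library. A pair of neighbouring genes described as 26.2 kDa mitochondrial proteins, LOC117853120 and LOC117851705, may share reads, so their separate values are uncertain.

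**Figure D3:**
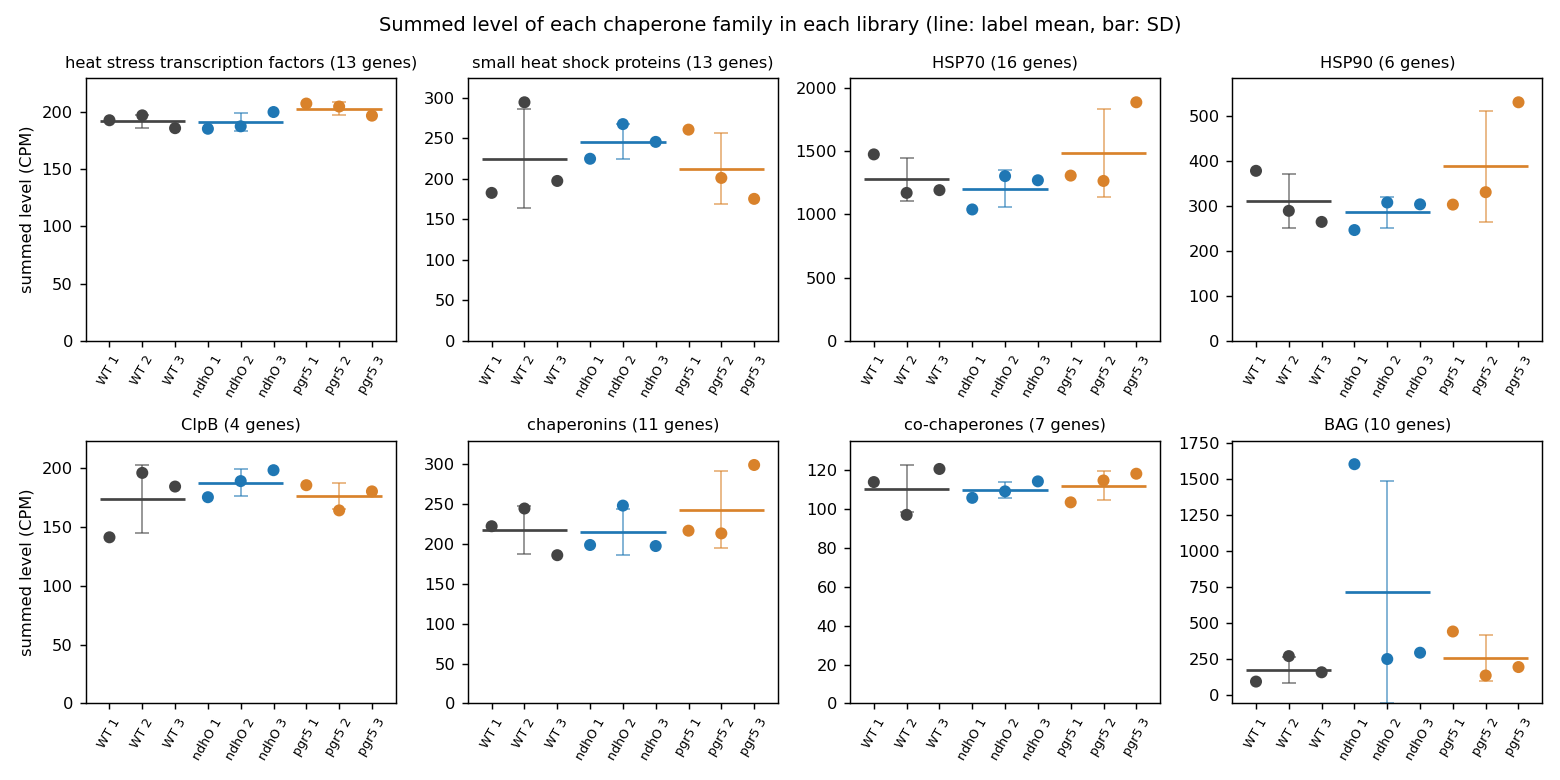
Summed CPM of each chaperone family (y axis) in each of the 9 libraries, with the label mean as a line and the standard deviation of 3 libraries as a bar. The HSP90 and HSP70 sums are highest in pgr5 3, at 531 and 1888 CPM, and the BAG sum is highest in ndhO 1, at 1604 CPM.

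HSP70 genes encode the ATP-driven chaperones that act on clients in most compartments. Of the 16 genes, 13 lay above 0 and 3 below for pgr5 against WT (median log2 fold change 0.35), 11 above and 5 below for pgr5 against ndhO (median 0.16), and 8 on each side for ndhO against WT (median 0.00). Without pgr5 3 the first median was 0.08 and the second 0.01. The summed level was 1476, 1171 and 1193 in WT 1, 2 and 3, 1039.7, 1304 and 1271 in ndhO 1, 2 and 3, and 1308, 1265 and 1888 in pgr5 1, 2 and 3, all in CPM. The 2 highest sums were in pgr5 3 and WT 1, and the labels overlapped.

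The pair of genes for the chloroplast stromal HSP70, which takes part in protein import and folding in the plastid, was highest in pgr5 3. LOC117848655 was at 239, 232 and 155 CPM in WT 1, 2 and 3, 177, 255 and 261 CPM in ndhO 1, 2 and 3, and 254, 226 and 416 CPM in pgr5 1, 2 and 3, and its log2 fold change for pgr5 against WT was 0.52 (SE 0.27), or 0.20 without pgr5 3 and 0.34 without WT 3. LOC117848821 was at 162, 183 and 100.5 CPM in WT 1, 2 and 3, 159.7, 219 and 208 CPM in ndhO 1, 2 and 3, and 223, 142 and 315 CPM in pgr5 1, 2 and 3, with a log2 fold change of 0.61 (SE 0.30) for the same contrast, or 0.30 without pgr5 3 and 0.39 without WT 3. WT 3 was the lowest library for both genes, and the other 7 libraries lay within a range of 142 to 261 CPM over both genes together. The HSP70 gene with the most reads, LOC117847195 (heat shock 70 kDa protein 4-like, named after a cytosolic Arabidopsis member), was at 538, 334 and 458 CPM in WT 1, 2 and 3, 327, 346 and 350.4 CPM in ndhO 1, 2 and 3, and 336, 422 and 586 CPM in pgr5 1, 2 and 3. Its 3 ndhO libraries were close together, and its log2 fold change for ndhO against WT was -0.38 (SE 0.24).

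HSP70-17 (LOC117835336), which in Arabidopsis belongs to the large HSP110 branch and sits in the endoplasmic reticulum, was at 100.8, 49.7 and 51.4 CPM in WT 1, 2 and 3, 43.1, 38.7 and 43.9 CPM in ndhO 1, 2 and 3, and 72.8, 43.3 and 93.1 CPM in pgr5 1, 2 and 3. WT 1, pgr5 3 and pgr5 1 were high and the other 6 libraries lay from 38.7 to 51.4 CPM. Its log2 fold change was 0.74 (SE 0.32) for pgr5 against ndhO, with an unadjusted p of 0.0463 by edgeR, and -0.69 (SE 0.32) for ndhO against WT, which became -0.27 without WT 1. The HSP70-15-like pair LOC117848693 and LOC117848170, of the HSP110 branch that serves as nucleotide exchange factors of HSP70, was among the steadiest of the 80 genes. LOC117848693 stayed between 124 and 159 CPM, and LOC117848170 between 65.7 and 83.2 CPM. The 2 genes are neighbours with the same description and may share reads.

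Low-level HSP70 genes spread more. HSP70-4 (LOC117848470) ran from 0 CPM in WT 3 to 3.83 CPM in WT 1. The mitochondrial-like LOC117844678 was at 16.5, 23.04 and 5.56 CPM in WT 1, 2 and 3, 9.95, 17.9 and 17.2 CPM in ndhO 1, 2 and 3, and 21.7, 8.92 and 27.0 CPM in pgr5 1, 2 and 3, with WT 3 the lowest and pgr5 3 the highest. A cognate-like gene, LOC117836872, had 0, 0.464 and 0.245 CPM in WT and 1.03, 1.52 and 0.663 CPM in ndhO, so that these labels did not overlap, and its log2 fold change of 2.18 had an SE of 1.79.

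HSP90 genes encode chaperones that mature signalling proteins and, in organelles, newly imported ones. Of 6 genes, 5 lay above 0 and 1 below both for pgr5 against WT (median log2 fold change 0.31) and for pgr5 against ndhO (median 0.44), while for ndhO against WT 4 lay above and 2 below (median 0.03). Without pgr5 3 the pgr5 medians were -0.02 against WT and 0.19 against ndhO. The summed level was 378, 289 and 265 in WT 1, 2 and 3, 247, 308 and 304 in ndhO 1, 2 and 3, and 303, 331 and 531 in pgr5 1, 2 and 3, all in CPM. The sum was highest in pgr5 3 and next highest in WT 1, and the labels overlapped.

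The chloroplast gene HSP90-5 LOC117860892 was at 49.7, 49.4 and 33.0 CPM in WT 1, 2 and 3, 41.5, 53.5 and 56.9 CPM in ndhO 1, 2 and 3, and 40.5, 48.4 and 130.2 CPM in pgr5 1, 2 and 3. The pgr5 3 library stood alone and the other 8 lay from 33.0 to 56.9 CPM. Its log2 fold change for pgr5 against WT was 0.73 (SE 0.41) with all libraries and 0.01 without pgr5 3. The mitochondrial gene HSP90-6 (LOC117848890) was at 12.2, 19.0 and 15.9 CPM in WT 1, 2 and 3, 20.1, 17.3 and 11.5 CPM in ndhO 1, 2 and 3, and 22.4, 19.2 and 29.3 CPM in pgr5 1, 2 and 3. All 3 pgr5 libraries lay above all 3 WT libraries, with 19.2 CPM in the lowest pgr5 library beside 19.0 CPM in the highest WT library. The log2 fold change was 0.59 (SE 0.26), with an unadjusted p of 0.0447 and an adjusted p of 1.00 by edgeR.

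The cytosolic genes of the HSP81-1 type, LOC117861006 and LOC117861004, have 1 coding gene between them and may share reads. LOC117861006 was at 169, 104 and 105 CPM in WT 1, 2 and 3, 96.8, 110.0 and 115 CPM in ndhO 1, 2 and 3, and 122, 121 and 182 CPM in pgr5 1, 2 and 3, and LOC117861004 at 111, 61.8 and 69.8 CPM in WT 1, 2 and 3, 53.8, 67.9 and 80.2 CPM in ndhO 1, 2 and 3, and 72.1, 83.4 and 122 CPM in pgr5 1, 2 and 3. For both genes pgr5 3 and WT 1 were the 2 highest libraries and ndhO 1 the lowest. For LOC117861006 every pgr5 library lay above every ndhO library, with a log2 fold change of 0.40 (SE 0.23).

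Heat shock protein 82 (LOC117862770), also of the HSP90 family, was detected in 4 libraries. It had 13, 15 and 9 counts in WT 1, 2 and 3, 0, 75 and 0 counts in ndhO 1, 2 and 3, and 0 counts in each pgr5 library. With counts pooled by label and a floor of 3 counts over the pgr5 label, its level in pgr5 was at least 13.6-fold lower than in WT. By the same rule it was at least 26.9-fold lower than in ndhO. These bounds cover counting error only and not the spread between libraries. The ndhO value came from the library ndhO 2 alone, and ndhO 1 and 3 held 0 counts, as the pgr5 libraries did. The unadjusted p by edgeR was 0.0406 for pgr5 against WT and 0.0268 for pgr5 against ndhO, and both adjusted p-values were 1.00.

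**Figure D4:**
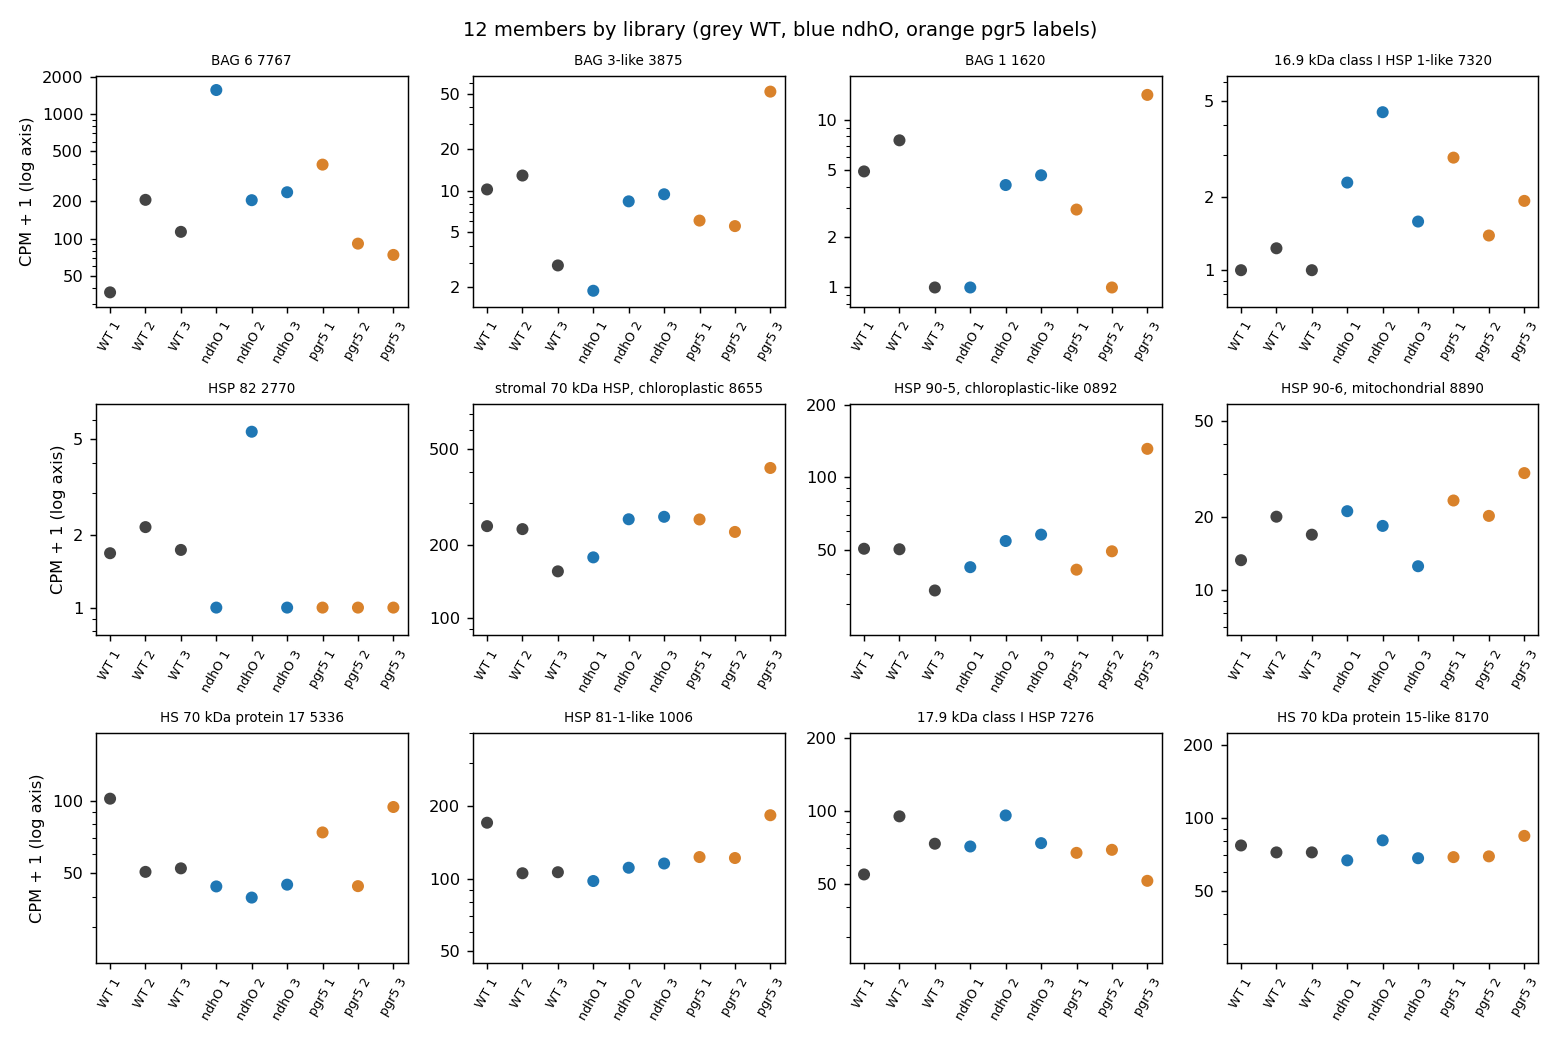
CPM plus 1 on a log axis (y) in each library for 12 chaperone genes, 1 panel per gene with the last 4 digits of its number, coloured by label. BAG6 is highest in ndhO 1 at 1557 CPM, BAG3-like in pgr5 3 at 50.7 CPM, and HSP70-15-like (LOC117848170) stays between 65.7 and 83.2 CPM.

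ClpB proteins pull aggregated proteins apart. The chloroplast gene ClpB2 (LOC117841008) was at 131, 182 and 174 CPM in WT 1, 2 and 3, 163, 178 and 187 CPM in ndhO 1, 2 and 3, and 173, 153 and 164 CPM in pgr5 1, 2 and 3, with WT 1 the lowest and the other 8 libraries from 153 to 187 CPM. Its log2 fold changes were 0.12 (SE 0.16) for ndhO against WT and 0.01 (SE 0.16) for pgr5 against WT. The mitochondrial gene ClpB3 (LOC117843681) lay from 7.34 to 13.9 CPM, and each of its pgr5 libraries exceeded each ndhO library, with a log2 fold change of 0.47 (SE 0.25). ClpB1 (LOC117847755), whose cytosolic rice and Arabidopsis relatives (HSP101) are needed for thermotolerance, was at 0.892, 1.70 and 0.981 CPM in WT 1, 2 and 3, 3.77, 2.80 and 1.03 CPM in ndhO 1, 2 and 3, and 1.28, 0.470 and 0.701 CPM in pgr5 1, 2 and 3. The highest levels were in ndhO 1 and ndhO 2, while ndhO 3 lay among the other labels. The log2 fold change for pgr5 against ndhO was -1.62 (SE 0.72), with an unadjusted p of 0.0481 by edgeR at 6 to 55 counts per library.

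Chaperonins enclose a client in a double ring, and their small partners close it. The family as grouped here also takes in 2 genes described as chaperonin-like RbcX, for Rubisco assembly factors. Of the 11 genes, 9 lay above 0 and 2 below for pgr5 against WT (median log2 fold change 0.22), 10 above and 1 below for pgr5 against ndhO (median 0.23), and 6 above and 5 below for ndhO against WT (median 0.03). Without pgr5 3 the pgr5 medians were -0.07 and -0.08. The RbcX gene LOC117839250, for a Rubisco assembly factor of the chloroplast, was at 93.6, 64.9 and 84.3 CPM in WT 1, 2 and 3, 65.9, 93.8 and 62.7 CPM in ndhO 1, 2 and 3, and 72.0, 98.8 and 90.4 CPM in pgr5 1, 2 and 3, and the labels overlapped. The other RbcX gene, LOC117846246, lay from 22.9 to 36.0 CPM and the chloroplast 20 kDa chaperonin gene LOC117844704, for a ring partner, from 34.9 to 64.7 CPM, both lowest in WT 3. The mitochondrial CPN60-1-like gene LOC117839507 was at 0.682, 5.72 and 0.736 CPM in WT 1, 2 and 3, 1.17, 0.934 and 0 CPM in ndhO 1, 2 and 3, and 1.65, 1.64 and 0.643 CPM in pgr5 1, 2 and 3. Only WT 2 stood apart, with 74 counts against 0 to 31 in the other libraries, and the log2 fold change for pgr5 against WT was -0.85 (SE 1.18).

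Co-chaperones steer HSP70 and HSP90, and their summed level varied little, from 97.0 CPM in WT 2 to 121 CPM in WT 3. Over the 6 genes with a mean of at least 1 CPM, the family median varied more. Relative to each gene's own mean it ran from -0.31 in WT 2 to 0.28 in pgr5 3 on the log2 scale. The median log2 fold changes of the family were -0.19, 0.00 and 0.12 for ndhO and for pgr5 against WT and for pgr5 against ndhO. The HSP70-HSP90 organizing protein (LOC117864214), which passes clients from one machine to the other, was at 42.4, 45.5 and 55.2 CPM in WT 1, 2 and 3, 42.7, 50.4 and 54.7 CPM in ndhO 1, 2 and 3, and 44.3, 49.8 and 49.1 CPM in pgr5 1, 2 and 3, a narrow range in which the labels overlapped. The HSP70-binding protein 1-like gene LOC117840771, for a nucleotide exchange factor, lay from 23.1 to 34.1 CPM. The activator of HSP90 ATPase gene LOC117862265, whose product speeds the HSP90 cycle, lay from 12.5 to 21.6 CPM.

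BAG proteins bind HSP70 through their BAG domain and regulate its release of clients, and this family held the genes with the largest spread. BAG6 (LOC117837767), whose Arabidopsis relative binds calmodulin and is linked to programmed cell death and defence, was at 36.0, 203 and 112 CPM in WT 1, 2 and 3, 1557, 202 and 234.3 CPM in ndhO 1, 2 and 3, and 391, 89.99 and 72.9 CPM in pgr5 1, 2 and 3. The library ndhO 1 stood far above the next highest, pgr5 1, and within each label the highest library exceeded the lowest several-fold. The log2 fold change for ndhO against WT was 2.50 (SE 1.08), with an unadjusted p of 0.05001 by edgeR, and it was 0.90 without ndhO 1. The family sum was 91.7, 269 and 156 in WT 1, 2 and 3, 1604, 249 and 292 in ndhO 1, 2 and 3, and 440.0, 134 and 193 in pgr5 1, 2 and 3, all in CPM.

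Other BAG genes were highest in pgr5 3 and low in ndhO 1 and WT 3. BAG3-like (LOC117853875) was at 9.19, 11.8 and 1.88 CPM in WT 1, 2 and 3, 0.892, 7.36 and 8.40 CPM in ndhO 1, 2 and 3, and 5.07, 4.54 and 50.7 CPM in pgr5 1, 2 and 3. BAG1 (LOC117861620) was at 3.94, 6.57 and 0 CPM in WT 1, 2 and 3, 0, 3.09 and 3.68 CPM in ndhO 1, 2 and 3, and 1.92, 0 and 13.1 CPM in pgr5 1, 2 and 3, with 225 counts in pgr5 3 and 0 in WT 3, ndhO 1 and pgr5 2. BAG2-like (LOC117845720) was at 7.72, 7.89 and 3.76 CPM in WT 1, 2 and 3, 2.195, 4.44 and 4.49 CPM in ndhO 1, 2 and 3, and 4.43, 2.90 and 14.6 CPM in pgr5 1, 2 and 3. For these 3 genes the labels overlapped in all contrasts, and the log2 fold change of BAG3-like for pgr5 against WT was 1.39 (SE 1.15) with all libraries and -0.67 without pgr5 3.

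The remaining named BAG genes were steadier or low. BAG4 (LOC117857108) stayed between 14.7 and 20.0 CPM and BAG7-like (LOC117849171) between 12.8 and 21.8 CPM. BAG7 (LOC117851892), whose Arabidopsis relative acts in the endoplasmic reticulum stress response, averaged 0.998 ± 0.484, 0.425 ± 0.371 and 1.58 ± 0.739 CPM (SD, n = 3) in WT, ndhO and pgr5, and its pgr5 libraries all lay above its ndhO libraries. BAG1-like LOC117865553 averaged 1.14 ± 0.252, 1.299 ± 0.777 and 0.456 ± 0.077 CPM (SD, n = 3), and its pgr5 libraries lay below those of both other labels, with a log2 fold change of -1.31 (SE 0.82) against WT. For the BAG family as a whole, 8 of 10 genes lay above 0 for pgr5 against WT (median log2 fold change 0.39), and the median was -0.10 without pgr5 3.

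Families were also compared with each other over the 9 libraries, using the family medians. The 28 pairs gave 7 with an unadjusted exact permutation p under 0.05 and 0 after Benjamini-Hochberg adjustment. The strongest was between HSP90 and HSP70, with Pearson's r = 0.923 (exact permutation p = 0.0036, adjusted 0.0884) and Spearman's rho = 0.750 (exact permutation p = 0.0255, adjusted 0.238). Without pgr5 3 and ndhO 1, the 2 libraries farthest from the median of HSP90, r was 0.395. Leaving out the extremes also narrows the range, so the fall does not settle whether the relation rests on those libraries. With the label means removed r was 0.919. Across the 9 libraries the median r between pairs of genes was 0.54 within HSP90, 0.38 within chaperonins, 0.25 within HSP70 and -0.05 within heat stress transcription factors, beside 0.05 for all 69 chaperone genes with a mean of at least 1 CPM and 0.00 for all genes.

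Other genes of the folding pathway, with a list of heat-responsive partners, gave the same count, with 0 of 182 past the adjusted edgeR test in any contrast. These were 63 J-domain co-chaperones, 18 prefoldin and CCT subunits, 13 plastid folding and import chaperones, 22 endoplasmic reticulum folding genes, 50 immunophilins and 16 heat-responsive partners. The partners include ascorbate peroxidases and a multiprotein-bridging factor, which are not folding genes. At an unadjusted p under 0.05, edgeR gave 0 J-domain genes higher and 5 lower for ndhO against WT (background 2.74% of all genes), 0 higher and 1 lower for pgr5 against WT (background 2.06%), and 4 higher and 0 lower for pgr5 against ndhO (background 2.67%). Those backgrounds hold both directions and apply to the next lists too. Of 17970 genes, 236 were higher and 257 lower for ndhO against WT. The counts were 186 and 185 for pgr5 against WT, and 252 and 228 for pgr5 against ndhO. Of 22 endoplasmic reticulum folding genes, 0 were higher and 3 lower, then 0 in either direction, then 2 higher and 1 lower in the same contrasts. Of 50 immunophilins, 0 passed, then 1 was lower, then 3 were lower. The 18 prefoldin and CCT genes and the 13 plastid chaperones each gave 1 higher for pgr5 against WT and 0 in the other contrasts. The 16 heat-responsive partners gave 0 throughout. No list was tested as a set. The median log2 fold changes of prefoldin and CCT, which fold actin and tubulin, were 0.03, 0.17 and 0.17 in the 3 contrasts in that order. Those of plastid folding and import chaperones were 0.06, 0.22 and 0.20, and 9 of the 13 were highest in pgr5 3. The plastid ClpC2 (LOC117848071), a motor of protein import, was at 2123, 2726 and 2763 CPM in WT, 2352, 2869.9 and 2859.6 CPM in ndhO and 2888, 2639 and 2695 CPM in pgr5. Immunophilins, which turn proline bonds, had medians of 0.07, 0.02 and -0.06, and the heat-responsive partners -0.04, 0.01 and 0.12.

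Endoplasmic reticulum folding genes were highest in WT 1 for 9 of 22, and their medians were -0.22, -0.14 and 0.14 in the 3 contrasts. The endoplasmin homolog (LOC117851319), the HSP90 of that compartment, was at 428, 149 and 108 CPM in WT 1, 2 and 3, 112, 94.4 and 118 CPM in ndhO 1, 2 and 3, and 204, 93.1 and 275 CPM in pgr5 1, 2 and 3. Luminal-binding protein 3 (LOC117841548), its HSP70, was at 334, 144 and 90.5 CPM in WT 1, 2 and 3, 88.4, 79.5 and 93.7 CPM in ndhO 1, 2 and 3, and 139.9, 86.3 and 218 CPM in pgr5 1, 2 and 3. Both were highest in WT 1 and second highest in pgr5 3, the same libraries in which HSP70-17 and the HSP81-1 genes were high. Calnexin (LOC117863958), a lectin chaperone of glycoproteins, was at 303, 225 and 198 CPM in WT, 149.9, 132 and 162 CPM in ndhO and 221, 153 and 277 CPM in pgr5, with the same 2 libraries at the top.

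Markers of other leaf cell types and states moved between libraries as well. The summed level of 57 genes picked by words for dividing cells ran from 1781 CPM in pgr5 3 to 1942 CPM in WT 3. The words also took in histone H3.3 and cyclin-dependent kinases, which hold much of that sum, so it does not mark dividing cells alone. The summed level of 61 epidermis and cuticle genes ran from 1059.8 CPM in pgr5 2 to 1354 CPM in ndhO 3. The 25 genes of lignifying vascular tissue ran from 430 CPM in pgr5 2 to 874 CPM in pgr5 3, and the 183 cytosolic ribosomal protein genes from 3435 CPM in WT 3 to 9088 CPM in pgr5 3. The 12 antenna genes ran from 35159 CPM in WT 3 to 66366 CPM in WT 2, and the 15 clock genes from 2181 CPM in WT 2 to 2738 CPM in pgr5 2. None of these genes passed the adjusted edgeR test in any contrast, and their part in the chaperone values was not tested.

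The authors' deposited table gave another picture for 2 chaperone genes. In the authors' deposited table, 0 of the 80 had an adjusted p under 0.05 for ndhO (background 0% of all genes) and 2 of the 80 for pgr5 (2.5% of the 80, background 2.51%). In the authors' deposited table, HSP90-6 (LOC117848890) had a log2 fold change of 1.33 for pgr5 with an adjusted p of 0.0126, beside 0.59 from the counts by edgeR. In the authors' deposited table, the CPN60-1-like gene LOC117839507 had a log2 fold change of 4.78 with an adjusted p of 0.0170, beside -0.85 from the counts by edgeR. For that gene the signs differ, and its counts were 13, 74 and 9 in WT 1, 2 and 3 and 31, 21 and 11 in pgr5 1, 2 and 3. The headers of that table do not name the control of its ndhO and pgr5 values, so the contrasts may differ from those fitted on the counts. That table also holds corrected log2 CPM, and the sources used here do not say what was corrected.

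**Figure D5:**
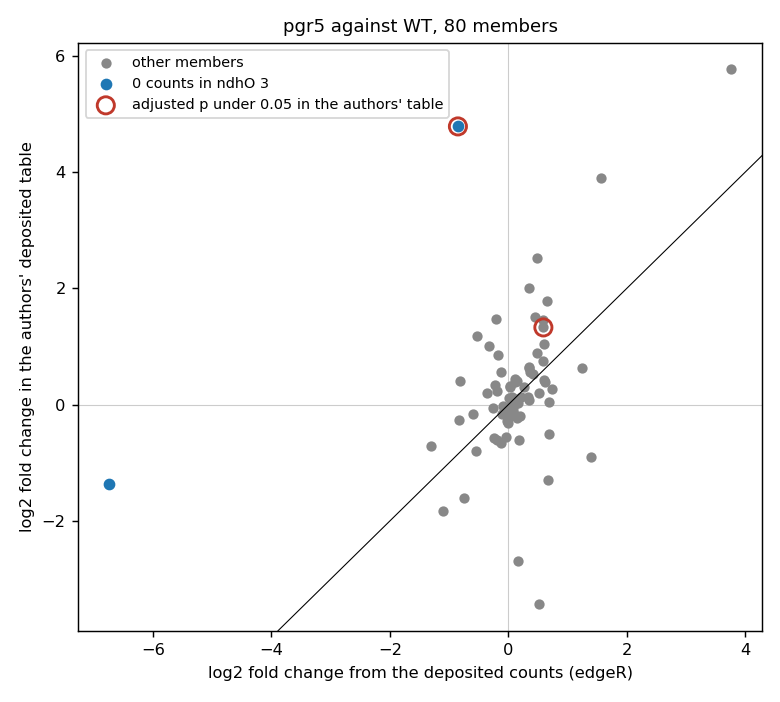
Log2 fold change of the 80 genes for pgr5 against WT from the deposited counts by edgeR (x axis) and for pgr5, the control not named, in the authors' deposited table (y axis), with the line of equal values. The 2 genes ringed in red had an adjusted p under 0.05 in the authors' deposited table, and 1 of them, CPN60-1-like, lies at -0.85 on the x axis and 4.78 on the y axis.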

How the data were processed

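Leaf polyA RNA was sequenced as stranded 150 bp paired-end reads, per the labels' protocols, with RNA integrity above 8.5. Per the submitters' processing notes, the tools included StringTie 2.2.3, limma 3.62.2, edgeR 4.4.1, Trim Galore 0.6.7 and FastQC 0.11.9. The sources used here name no aligner and no genome build. The authors deposited whole-number counts per gene and library, per the file headers, and these were tested as deposited. The authors' corrected log2 CPM and log2 fold changes, their p-values and their t and B statistics, treated as a score, are named in the file headers and were only described. Columns of the edited plants hold a further number, of unstated meaning, and were matched to samples by label and last number. Gene descriptions come from the deposited table, and all 80 chaperone genes matched a RefSeq identifier, used for symbols and neighbours only.

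Counts were fitted in R 4.3.3 with edgeR 4.0.16 (TMM, default filter on low counts, robust quasi-likelihood, 1 fit over 9 libraries with genotype as the only term), and p-values were adjusted by Benjamini-Hochberg over the 17970 genes tested, with a threshold of 0.05. Standard errors are the fold change divided by the root of the F statistic. Label means and SD are over CPM. Alternatives were DESeq2 1.42.0, limma-voom (limma 3.58.1), other scalings and filters, a replicate block, fits of 6 libraries and leaving out each library. The fit was tested on simulated data. The common biological coefficient of variation was 0.383. Correlations used all 362880 orders of the 9 libraries, on log2 CPM (prior count 2). Ratios between libraries used to choose genes add 1 CPM.

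The chaperone genes, families and lists were chosen with earlier results of these data known. Named genes are the 3 with the highest mean CPM in each family, the 8 with the largest and 3 with the smallest ratio between libraries among genes with a mean of at least 1 CPM, the 2 with the lowest p in each direction and contrast, those called in the authors' deposited table, and up to 3 per contrast whose libraries do not overlap.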

Additional observations from a re-analysis of the deposited data

Results flagged for a closer look

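For pgr5, with the control not named, the authors' deposited table calls 2 chaperone genes, HSP90-6 (LOC117848890) and the CPN60-1-like gene LOC117839507. The test of pgr5 against WT on the deposited counts calls none of the 80. This difference was picked out because the authors' values lie outside the main measurement.

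The corrected log2 CPM in the authors' deposited table, which no comparison above uses, hold a pattern in ndhO 3. For all 80 chaperone genes, and for all 17987 genes of the table, the corrected value in ndhO 3 equals the mean of those in ndhO 1 and ndhO 2, within a tolerance of 1e-06. The counts of ndhO 3 do not show this, and 2 of the 80 genes have 0 counts there. The sources used here do not say what the correction did.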

How the results depend on the processing

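No chaperone gene was called in any contrast under any of the alternatives run. DESeq2 called 16, 6 and 12 of all genes in the 3 contrasts and 7 for any difference, none a chaperone gene, where the other alternatives called 0. At an unadjusted p under 0.05 the alternatives gave 0 to 5 chaperone genes for ndhO against WT, 1 to 5 for pgr5 against WT and 0 to 5 for pgr5 against ndhO. Each of the 8 results with an unadjusted p under 0.05 in a contrast lay above 0.05 in at least 1 fit that left out a library. The median log2 fold change of the chaperone genes ran from -0.08 to 0.10, 0.01 to 0.13 and -0.05 to 0.17 in these contrasts, the last being -0.049 without pgr5 replicate 3 and 0.166 without pgr5 replicate 1 (0.13 with all libraries). Of the family correlations, 2 changed sign over genes with a mean of at least 10 CPM, BAG with HSP90 from 0.803 to -0.0975 and ClpB with co-chaperones from -0.690 to 0.267; the cause was not tested.

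The labels do not say that equal replicate numbers share a batch. With each gene's label mean subtracted, log2 CPM of same-numbered libraries correlated at -0.38 to 0.06. That check takes the labels as given, so it cannot settle whether the numbers pair the samples. With the replicate block 0 chaperone genes were called in each contrast, 1, 3 and 2 had an unadjusted p under 0.05, and the medians were -0.00, 0.07 and 0.14. Genes with few reads are limited by depth: 14 of the 80 had no read in at least 1 library, and a library at 0 allows up to 3 counts.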
